A study of Rattus norvegicus with 24 samples.

Results

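The genes described here encode the receptors through which the heart reads circulating and locally released hormones and transmitters. They were chosen by symbol in the platform's probe annotation, as every gene whose symbol starts with Adra, Adrb, Adora, Agtr, Avpr, Bdkrb, Chrm, Drd, Ednr, Hrh, Htr and a digit, Npr, P2ry or Ptger, a rule that itself uses no measured value. The rule found 55 genes, carried by 57 probes, among 4126 named genes on the array. Of these 55, 30 had values on at least 2 arrays of each right ventricle group and are called measured, against 2835 of all named genes.

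The study measured total RNA of rat ventricles on 2-colour arrays, each sample against a common reference pool, at day 14. The samples are labelled CHF (6 right and 2 left ventricle arrays), HYP (6 and 2) and CON (6 and 2). The title of the series speaks of compensated and decompensated hypertrophy after monocrotaline, a plant alkaloid that injures lung vessels and loads the right ventricle, so CHF is read here as heart failure, HYP as compensated hypertrophy and CON as control. The labels do not spell the abbreviations out, and dose, strain, sex and age are not stated there.

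Nearly all of these receptors are coupled to heterotrimeric G proteins. In the heart, beta-adrenergic, histamine H2 and some serotonin receptors raise cyclic AMP, which strengthens and quickens the beat, whereas muscarinic M2 and adenosine A1 receptors lower it. Alpha-1 adrenergic, angiotensin, vasopressin V1 and bradykinin receptors act mainly through phospholipase C and calcium. The natriuretic peptide receptors Npr1 and Npr2 are themselves guanylyl cyclases, and Htr3b encodes a subunit of an ion channel.

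Values are deposited scores, read as ratios against the reference pool standardised within each array and here centred on each array's median, so a score has no absolute level and cannot be set against the score of another gene. Differences are in units of the array SD, with their standard errors, and n is 6 arrays a group in the right ventricle unless stated. The direction of the ratios is likely, not settled. It rests on Acta1 and Ankrd1, which differed between CHF and CON right ventricles by 4.35 ± 0.573 (limma adjusted p = 0.000157) and 1.56 ± 0.418 (adjusted p = 0.112), and arrays correlated across probes at as low as -0.53. Each comparison was therefore repeated with the sign turned on 5 arrays of doubtful direction, namely CHF arrays 10 and 14 of the right ventricle, and CHF array 09 and CON arrays 21 and 22 of the left. An array held between 2162 and 3658 values. Of 17 cardiomyocyte marker genes 14 were measured, and 0 of them passed the test between right ventricle groups. Few features tested passed, 0.907% for CHF and 0.281% for HYP, each set against CON. The count of 0 thus cannot show that muscle content was alike. In CHF the median difference of the 14 from CON was -0.33, where all features had -0.099, and 6 were above 0. The mean of the 11 with a value on every array ran from -1.973 to 1.256 on CHF arrays. This mean ran from -0.614 to 1.026 on HYP and from -0.711 to 1.089 on CON arrays.

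The measured receptors came from 12 families. All 3 vasopressin receptor genes and both bradykinin receptor genes were measured, as were 3 of 4 adenosine, 3 of 8 adrenergic, 3 of 5 muscarinic, 3 of 5 dopamine, 5 of 12 serotonin, 2 of 3 histamine, 2 of 3 natriuretic peptide, 2 of 5 nucleotide, 1 of 2 angiotensin and 1 of 3 prostaglandin E receptor genes. The array carried no gene whose symbol starts with Ednr. A value on every one of the 24 arrays was found for 15 genes.

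The other 25 genes were not measured. Of these, 13 had no value on any array (Adra1a, Adra2a, Adrb3, Agtr2, Chrm4, Htr1d, Htr2b, Htr4, Htr5a, Htr5b, Htr6, Htr7 and Ptger2), and 12 had values on some (Adora3, Adra1d, Adra2b, Chrm1, Drd1, Drd3, Hrh3, Npr3, P2ry1, P2ry2, P2ry6 and Ptger4). The sources used here do not say what makes a value missing. The P2Y1 and P2Y2 receptor genes, whose products sense extracellular ADP and ATP or UTP, had values on all 6 left ventricle arrays but on only 7 (P2ry1) and 5 (P2ry2) of the 18 right ventricle arrays. Npr3, the natriuretic peptide clearance receptor, had values on 2 HYP and 2 CON right ventricle arrays, and on 0 CHF arrays.

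The bradykinin B1 receptor gene Bdkrb1 was the only measured receptor past the test in the right ventricle. This receptor binds kinin fragments that have lost their last arginine and is known as an inducible receptor, scarce in healthy tissue and raised by injury and inflammation. Bdkrb1 scored 1.012, 0.759, 0.298, 0.503, 0.843 and 0.268 on CHF arrays 09, 10, 11, 12, 14 and 15. It scored 0.67, -0.727, 0.213, -0.956, 0.051 and -0.904 on HYP arrays 01, 03, 04, 05, 06 and 08, against -1.518, -1.82, -2.311, -1.493, -1.135 and -2.609 on CON arrays 17 to 22. Every CHF and every HYP array lay above every CON array, while CHF and HYP overlapped, with 3 HYP arrays above 0 and 3 well below it.

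Bdkrb1 was thus higher in CHF than in CON right ventricles by 2.43 ± 0.318 (means 0.614 and -1.81, limma adjusted p = 0.000157). It passed under each alternative setting, least clearly with the sign turned (1.89, adjusted p = 0.0318), and in all 18 fits that left out 1 array, at 2.27 to 2.56. It was 1 of 30 measured receptors past the test, where 0.907% of the 3199 features tested passed. In HYP against CON it was higher by 1.54 ± 0.318 (means -0.276 and -1.81, adjusted p = 0.0422), again as 1 of 30, where 0.281% of all features passed. The HYP call was lost with the sign turned (adjusted p = 0.293), without the doubtful arrays (adjusted p = 0.0701), with array weights, with only the 2 groups compared, and in 14 of 18 fits that left out 1 array, at 1.35 to 1.68 over all 18. It held only without HYP array 03, 05 or 08 or CON array 21. Between CHF and HYP the difference of 0.889 ± 0.318 did not pass (unadjusted below 0.05, limma adjusted p = 0.938). In whole tissue, more cells of a type and more RNA per cell cannot be told apart.

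**Figure D1:**
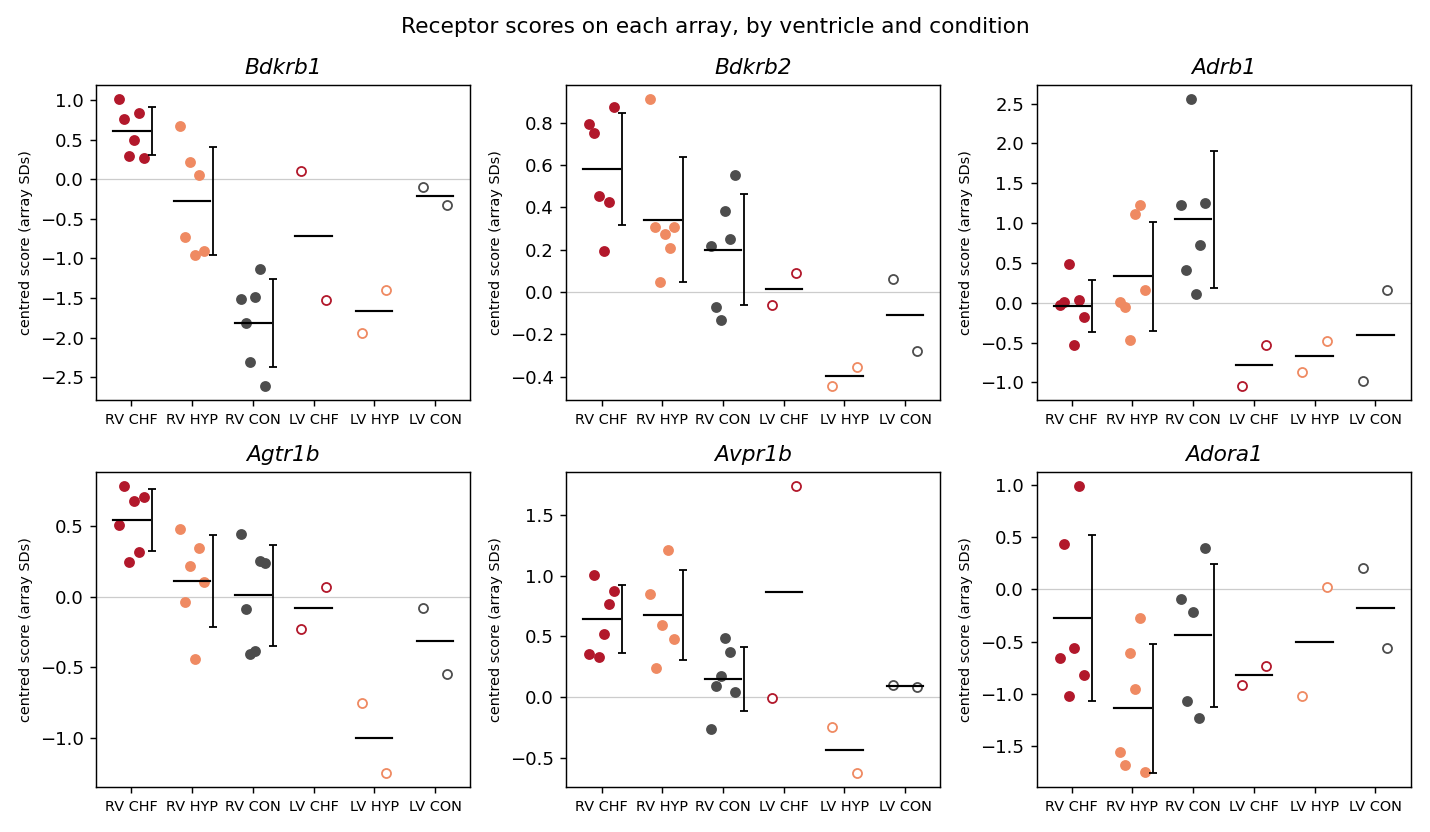
Centred score (array SDs) of 6 receptor genes on each array, in right (RV, filled) and left (LV, open) ventricles of CHF, HYP and CON samples. Lines are group means and bars SDs, drawn for the right ventricle. Bdkrb1 lies at -0.956 or above on all CHF and HYP right ventricle arrays and at -1.135 or below on all CON right ventricle arrays, while the groups of the other 5 genes overlap in the right ventricle.

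The bradykinin B2 receptor gene Bdkrb2, which encodes the constitutive receptor for intact bradykinin, did not pass. It scored between 0.194 and 0.875 in CHF (median 0.602), between 0.047 and 0.91 in HYP (median 0.29), and between -0.132 and 0.55 in CON right ventricles (median 0.233). The groups overlapped, and CHF differed from CON by 0.383 ± 0.212 (limma adjusted p = 0.64) and HYP from CON by 0.143 ± 0.212 (adjusted p = 0.9997).

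Over the 18 right ventricle arrays, the genes whose deviations from the group means were most like those of Bdkrb1, among 1481 named genes with a value on each of these arrays, were Tpm3 (Pearson r = 0.958), Safb (0.896), Acta2 (0.875), Tpm4 (0.853) and Ocm (0.849). Tpm3 and Tpm4 encode tropomyosins, Acta2 smooth muscle actin, Safb a nuclear scaffold protein and Ocm a calcium-binding protein. These correlations describe arrays that share their reference pool and carry no test. Acta1, skeletal muscle actin, stood at rank 12 with 0.702. Among the receptors the highest was Agtr1b at 0.451 (rank 29), while Bdkrb2 was at 0.216 and Adrb1 at -0.388. Tpm3, Safb, Tpm4 and Ocm were themselves higher in CHF than in CON, by 2.905, 4.39, 2.9 and 2.98 (limma adjusted p = 0.000122, 0.000122, 0.00091 and 0.000149). In HYP against CON Tpm3, Safb and Ocm passed (1.905, 3.208 and 2.05), while Tpm4 and Acta2 did not (1.663 and 1.026). Acta2 heads the list of 12 smooth muscle and pericyte markers, of which 6 were measured and Acta2 alone passed in CHF against CON, at 1.58 ± 0.252, but not with the sign turned (1.25, adjusted p = 0.0849). The mean of the 3 markers with a value on every array ran from 0.091 to 0.95 in CHF, from -0.204 to 0.55 in HYP and from -0.742 to 0.163 in CON right ventricles. Of the 6, 4 differences between CHF and CON were above 0, with a median of 0.335, and 3 had an unadjusted p below 0.05, Acta2, Rgs5 (1.08 ± 0.429, limma adjusted p = 0.465) and Tagln (0.528 ± 0.237, adjusted p = 0.533). The other 3, Cnn1, Myh11 and Pdgfrb, differed by 0.142 ± 0.33, -0.117 ± 0.322 and -0.134 ± 0.335. The part of these cells in the Bdkrb1 result was not tested.

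The beta-1 adrenergic receptor gene Adrb1, which encodes the main receptor for noradrenaline on cardiac muscle, had the lowest difference in CHF. It scored -0.027, 0.005, 0.482, -0.525, 0.031 and -0.176 on the CHF arrays and 0.007, -0.056, -0.462, 1.12, 1.222 and 0.158 on the HYP arrays. The CON arrays scored 1.229, 0.416, 2.554, 0.116, 0.725 and 1.251. CHF arrays gathered near 0, CON arrays were all above 0 with array 19 far up, and the groups overlapped. The difference was -1.08 ± 0.377 for CHF against CON (unadjusted below 0.05, limma adjusted p = 0.315) and -0.717 ± 0.377 for HYP against CON (adjusted p = 0.9997). Neither passed, and the CHF difference lay between -1.17 and -1.1 with the sign turned, without the doubtful arrays or with array weights.

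The remaining measured adrenergic genes differed less. Adra1b, an alpha-1 receptor that mediates vasoconstriction and growth signals in muscle, differed by 0.00817 ± 0.41 in CHF and by -0.0567 ± 0.41 in HYP against CON. Adra2c, an alpha-2 receptor that restrains noradrenaline release from sympathetic endings, differed by -0.176 ± 0.264 (n = 5 and 6) in CHF and by -0.0688 ± 0.264 (n = 5 and 6) in HYP against CON.

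Agtr1b, a rodent gene for the angiotensin type 1 receptor, scored 0.51, 0.783, 0.248, 0.676, 0.319 and 0.708 on the CHF arrays. It scored between -0.441 and 0.477 on the HYP arrays (median 0.16) and between -0.41 and 0.44 on the CON arrays (median 0.074). CHF arrays were all above 0, but the lowest of them lay within the CON range. The difference of 0.533 ± 0.224 for CHF against CON did not pass (unadjusted below 0.05, limma adjusted p = 0.497) and was 0.166 with the sign turned. HYP differed from CON by 0.102 ± 0.224.

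All 3 vasopressin receptors had values. Avpr1b, best known from the pituitary, scored between 0.328 and 1.006 in CHF (median 0.642) and between 0.235 and 1.209 on 5 HYP arrays (median 0.59), against -0.264 to 0.489 in CON right ventricles (median 0.132). The differences from CON were 0.491 ± 0.226 in CHF (unadjusted below 0.05, limma adjusted p = 0.546) and 0.522 ± 0.237 in HYP (unadjusted below 0.05, limma adjusted p = 0.9997), so that neither passed. With the doubtful arrays turned, the CHF difference was -0.0997. Avpr1a, the vascular vasopressin receptor, differed from CON by 0.319 ± 0.324 in CHF and 0.5 ± 0.324 in HYP. Avpr2, the renal receptor, had values on 2 CHF arrays only and differed by -0.876 ± 0.859 in CHF (n = 2 and 5) and -0.17 ± 0.65 in HYP (n = 5 each).

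Of the natriuretic peptide receptors, Npr1, the guanylyl cyclase for the atrial and B-type peptides, differed from CON by 0.302 ± 0.323 in CHF and 0.474 ± 0.323 in HYP. Npr2, the guanylyl cyclase for the C-type peptide, differed by 0.248 ± 0.235 in CHF and -0.0313 ± 0.235 in HYP. Neither gene passed in a right ventricle comparison.

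The adenosine A1 receptor gene Adora1, whose product slows the atrioventricular node, was, with Bdkrb1, 1 of the 2 receptors with an unadjusted p below 0.05 between CHF and HYP. It scored -0.657, 0.429, -1.021, -0.557, 0.988 and -0.821 on the CHF arrays, against -1.554, -1.682, -0.611, -0.957, -0.273 and -1.746 on the HYP arrays. CHF arrays 10 and 14 were the high ones, and the groups overlapped. CHF differed from HYP by 0.864 ± 0.396 (unadjusted below 0.05, limma adjusted p = 0.938), and by 0.373 without these arrays of doubtful direction. Adora2a and Adora2b, whose products raise cyclic AMP, differed by at most 0.212 in size from CON in CHF or HYP.

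Among the muscarinic genes, Chrm2, the vagal receptor of the heart, differed by -0.0015 ± 0.265 in CHF and -0.271 ± 0.265 in HYP against CON. Chrm3, which has 2 probes here, differed by -0.0685 ± 0.466 in CHF, and its probes gave -0.0231 ± 0.792 and -0.2 ± 0.309. The histamine receptor genes Hrh1 and Hrh2 differed by -0.2 ± 0.485 (n = 5 and 6) and -0.385 ± 0.331 in CHF, and the UTP receptor P2ry4 and the UDP-glucose receptor P2ry14 by -0.192 ± 0.274 and -0.406 ± 0.32. Htr3b differed by -0.721 ± 0.345 in CHF (adjusted p = 0.583) and by 0.134 with the sign turned. Ptger3, a prostaglandin E receptor that lowers cyclic AMP, had the second highest difference in CHF at 1.17 ± 0.656, but rested on 4 CHF arrays, 2 of them of doubtful direction, and 2 CON arrays. It was 1.44 with the sign turned (adjusted p = 0.472) and 1.09 without the doubtful arrays (0.655).

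Other serotonin and dopamine receptor genes, best known from nerve cells, lacked values on some of the 18 right ventricle arrays. Htr1a had values on 16 of them, Htr2c on 13, Drd5 on 12 and Drd4 on 8. Htr1a differed by -0.0878 ± 0.43 in CHF (n = 4 and 6) and -0.662 ± 0.384 in HYP against CON. Htr2c differed by -0.202 ± 0.58 in CHF (n = 3 and 5) and -0.472 ± 0.502 in HYP (n = 5 each). Drd5 differed by 0.162 ± 0.433 in CHF and -0.223 ± 0.433 in HYP (n = 4 each). Drd4 differed by -0.0578 ± 0.575 in CHF (n = 2 and 3) and 0.119 ± 0.514 in HYP (n = 3 each). None of these 4 genes passed.

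As a group, the 30 receptors divided evenly in CHF against CON, with 15 differences above 0 and 15 below, against 41.2% of all features above 0. With the sign turned 13 were above 0, against 44.3% of features, and without the doubtful arrays 13, against 41.9%. Their median difference was 0.003 in CHF (-0.077 with the sign turned), against -0.099 over all features (-0.092 turned), and -0.12 in HYP, against -0.046. At an unadjusted limma p below 0.05 stood 4 receptors in CHF against CON (8.5% of all features) and 2 in HYP against CON (4.1%). Between CHF and HYP, 0 of 30 passed limma after adjustment, as did 0% of all features, and 2 had an unadjusted p below 0.05 (4.94% of all features). Of the 17 receptors with values on every CHF and CON array of the right ventricle, 1 had groups that did not overlap, where 1.45% of all such features did. In HYP against CON it was 1 of 20, against 0.759%. These counts are a description of the list.

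**Figure D2:**
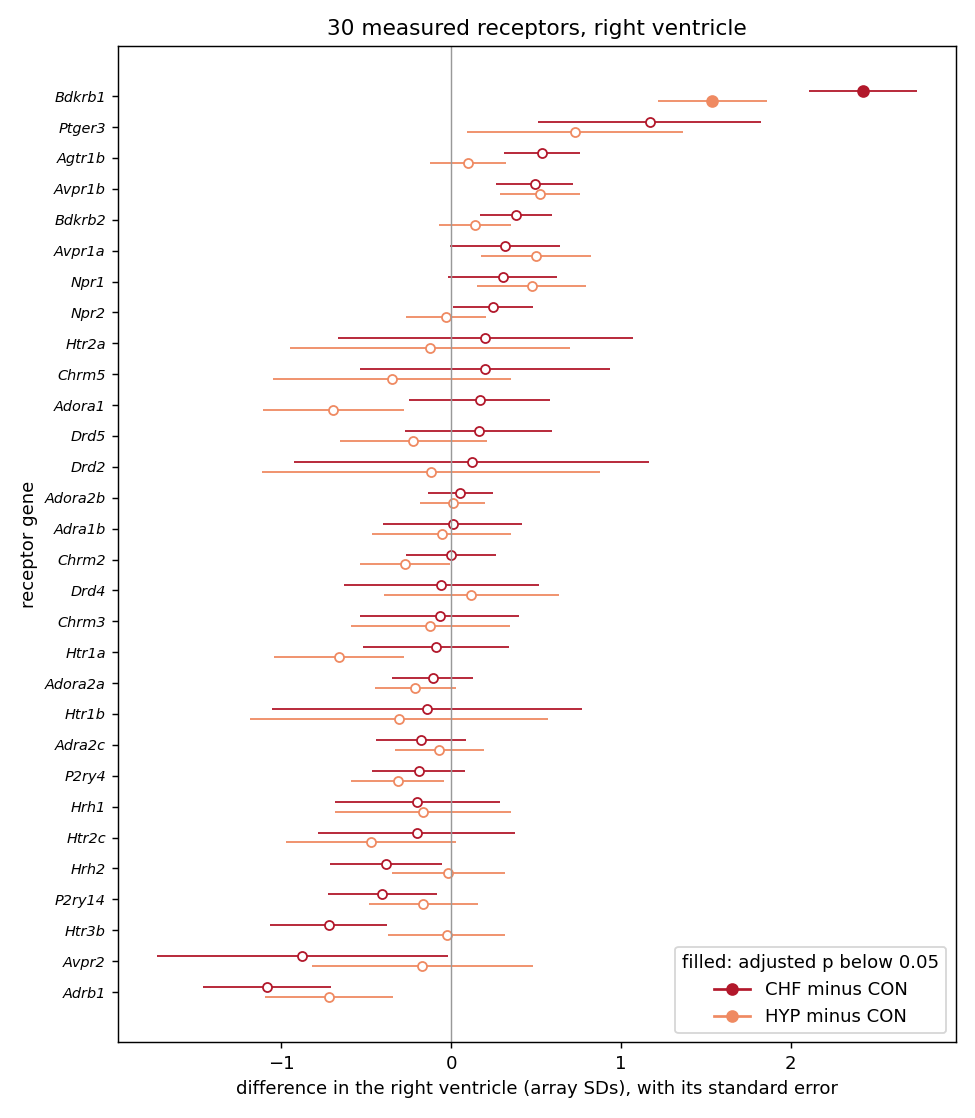
Difference from CON (array SDs) of the 30 measured receptor genes in the right ventricle, for CHF (dark) and HYP (light), with bars of 1 standard error and filled points where the adjusted p was below 0.05. Bdkrb1 alone is filled, at 2.43 in CHF and 1.54 in HYP, and Adrb1 is lowest in CHF at -1.08.

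Several receptors varied far more among arrays of 1 group than between groups, and did so together. Drd2, the dopamine D2 receptor gene, scored -1.217, 1.233, -1.416, 2.099 and -2.076 on CHF arrays 09, 10, 11, 14 and 15. It scored -0.671, -1.744, 2.059, -1.646, 1.348 and -2.431 on the HYP arrays, against 1.399, -1.3, 2.043, 0.396, -3.542 and -1.368 on the CON arrays. In each group some arrays lay above 1 and others below -1. The group means were close, at -0.275 in CHF, -0.514 in HYP and -0.395 in CON, with SDs of 1.83, 1.82 and 2.07. Htr1b, Htr2a and Chrm5, genes of serotonin and muscarinic receptors best known from neurons and vessels, went up and down on the same arrays, and the pairwise correlations of the deviations of these 4 genes ran from 0.937 to 0.978. Against CON, Htr1b differed by -0.143 ± 0.915 in CHF (n = 5 each), Htr2a by 0.202 ± 0.867 and Chrm5 by 0.198 ± 0.737 (n = 5 and 6), standard errors far above those of Bdkrb1.

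This variation followed a pattern shared by the whole array. Each score was taken less its group mean, and the first principal component of the result, computed from 1640 features other than the receptors over the 18 right ventricle arrays, held 43.3% of their variance. It was highest on CHF arrays 14 and 10 and HYP arrays 04 and 06, and lowest on CHF array 12 and HYP array 08. Of the 30 receptors, 5 correlated with it above 0.8, namely Htr1b (r = 0.934), Chrm5 (0.932), Htr2a (0.91), Drd2 (0.865) and Chrm3 (0.806), where 11.5% of the 3199 features tested did. Of the 16 receptors with a value on every right ventricle array, Chrm3 alone did, against 8.57% of 1656 such features. Chrm3 averages 2 probes, which correlated at only 0.433 over 23 arrays. Their SDs in CHF right ventricles were 1.58 (5 arrays) and 0.262 (6 arrays). At the other end 8 were below -0.5, namely Npr2 (-0.884), Avpr1a (-0.839), Adra1b (-0.826), P2ry4 (-0.798), P2ry14 (-0.784), Hrh2 (-0.762), Htr3b (-0.638) and Adora2a (-0.619), where 22.4% of features tested were. All 8 had values on every array, as did 16 receptors, and among such features 34% were. Bdkrb1 correlated with it at 0.279 and Adrb1 at 0.151. The points of these correlations are 8 to 18 arrays that share a reference pool. The component was highest on the CHF arrays of doubtful direction. Without these 2 arrays it held 30.8% of the variance, and 4 receptors stood above 0.8, Htr2a (0.928), Htr1b (0.913), Chrm5 (0.91) and Drd2 (0.885), against 8.5% of the features tested. With the 2 arrays turned, the first component held 25.6%, and Htr1b, Htr2a, Drd2 and Chrm5 correlated with it at 0.0936 to 0.356. The grouping of these 4 genes along the first component was thus seen without the 2 arrays, but not with them turned. Since the component comes from scores less their group means, using it as a covariate cannot move the difference of a gene with a value on every array, only its standard error. In that fit, chosen after seeing the data, Bdkrb1 kept its differences by construction, and its adjusted p was 0.000138 in CHF and 0.0282 in HYP against CON.

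**Figure D3:**
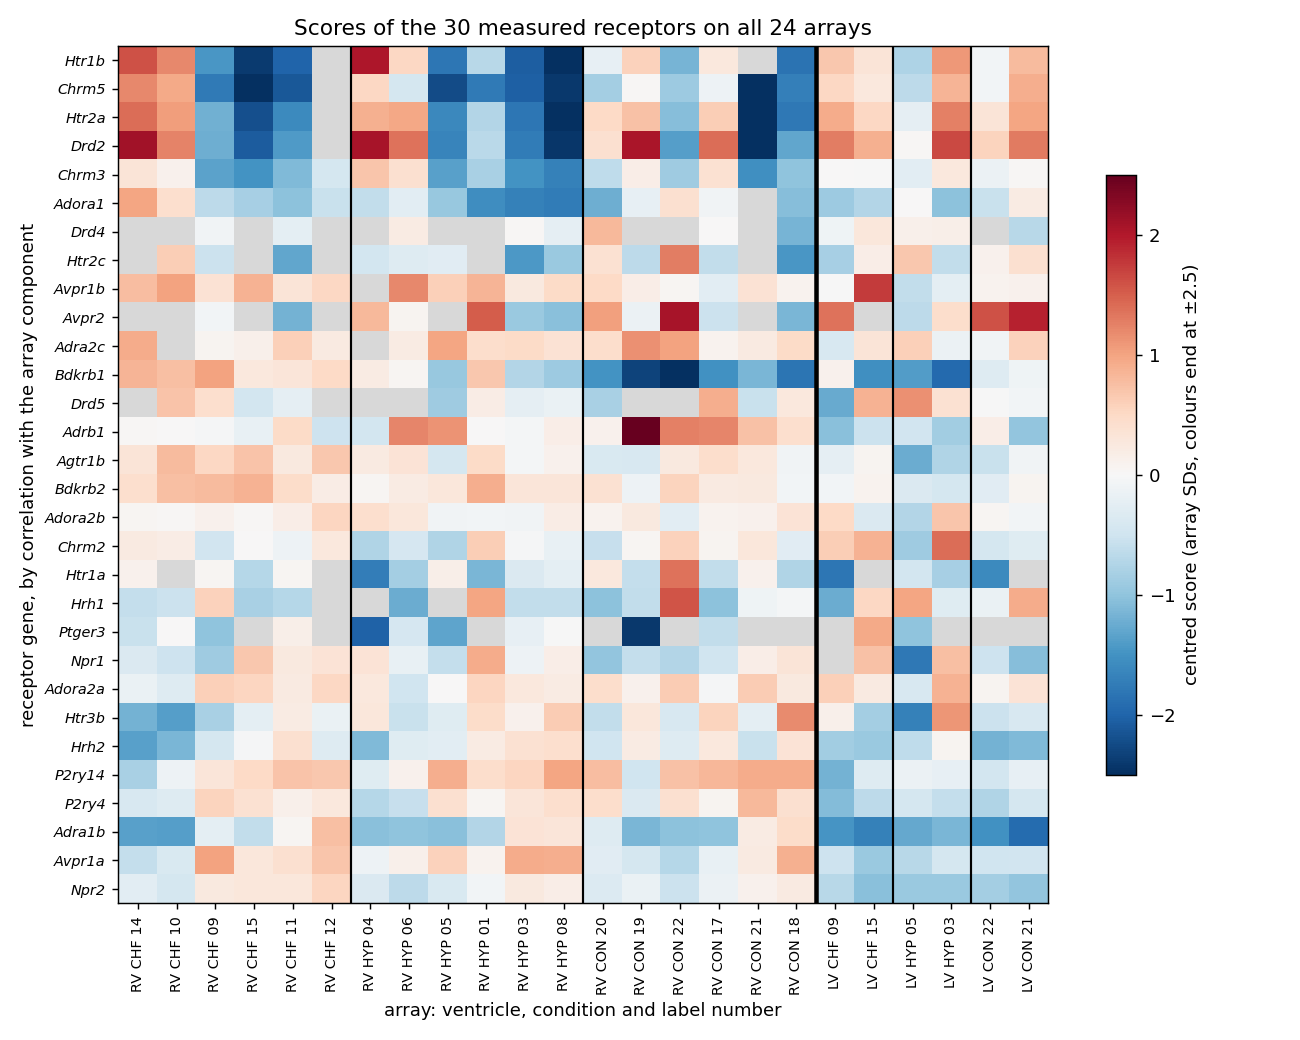
Centred score (colour, array SDs) of the 30 measured receptors (rows, by correlation with the array component, from 0.934 for Htr1b to -0.884 for Npr2) on 24 arrays (columns, grouped by ventricle and condition and ordered within a group by the component). Grey is no value. The top 5 rows switch between high and low within each right ventricle group, the bottom rows run the other way, and Bdkrb1 is above 0 on every CHF and below 0 on every CON array of the right ventricle.

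In the left ventricle, with 2 arrays a group and the spread borrowed from all 6 groups, 25 receptors could be compared. By limma 0 of 25 passed in each of the comparisons of CHF with CON, HYP with CON and CHF with HYP, where 0% of 2494 features passed in each. Unadjusted p-values below 0.05 were found for 0, 1 and 2 receptors, against 0.882%, 1.84% and 3.01% of features. The single one in HYP against CON was Bdkrb1. It scored 0.105 and -1.53 in CHF and -1.937 and -1.4 in HYP, against -0.1 and -0.33 in CON left ventricles, and HYP minus CON was -1.45 ± 0.568 (adjusted p = 0.996). The 2 in CHF against HYP were Avpr1b and Agtr1b. Avpr1b scored -0.007 and 1.74 in CHF, against -0.246 and -0.624 in HYP left ventricles (difference 1.3 ± 0.445, limma adjusted p = 0.958). Agtr1b scored -0.233 and 0.07 in CHF, against -0.754 and -1.247 in HYP left ventricles (0.919 ± 0.365, adjusted p = 0.958). The CHF arrays lay above the HYP arrays in both genes. With 2 arrays a group, CHF and HYP did not overlap in 7 of the 25 receptors, and the share over all features was not computed.

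The CHF difference of Bdkrb1 was 2.43 in right and -0.497 in left ventricles, and the interaction, right minus left, was 2.93 ± 0.656 (limma adjusted p = 0.124). The HYP difference was 1.54 in right and -1.45 in left ventricles, with an interaction of 2.99 ± 0.656 (adjusted p = 0.0773). Neither passed, as did 0 of 25 receptors and 0% of all features, and Bdkrb1 was the 1 receptor with an unadjusted p below 0.05 in each, where 2.73% and 2.49% of features were. The sign of the left ventricle CHF difference rested on array 15, without which that difference was 0.32 and the CHF interaction 2.11. Without left ventricle CHF array 09, which is of doubtful direction, the CHF interaction was 3.74. Both left ventricle CON arrays enter both interactions and are also of doubtful direction. Without left ventricle CON array 21 the CHF and HYP interactions were 2.81 and 2.88, and without array 22 they were 3.04 and 3.11. Without left ventricle HYP array 03 or 05 the HYP interaction was 2.72 or 3.26. These fits leave 1 array in a group, so no test is given for them. The HYP interaction passed without right ventricle CON array 21 (3.13, adjusted p = 0.0406). With all arrays, the HYP interaction passed with the sign turned (3.42, adjusted p = 0.0203) and under a stricter filter on features (adjusted p = 0.0353), and the CHF interaction with array weights (2.87, adjusted p = 0.0361).

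Averaged over the 3 conditions, right and left ventricles differed in 8 of 25 receptors, all higher in right ventricles, where 18.3% of 2494 features passed and 11.8% passed and were higher. Npr2 scored between -0.659 and 0.53 in right ventricles, against -0.693 and -1.05 in CHF, -0.928 and -0.922 in HYP and -0.99 and -0.85 in CON left ventricles. Every right ventricle array lay above every left ventricle array, the only such receptor of 15 with values on all arrays (0.742% of all such features), and the difference was 0.836 ± 0.175 (adjusted p = 0.00489). The other 7 overlapped. Left ventricle arrays lay mostly low in the right ventricle range or below it. However, Adrb1 on left ventricle CON array 22 (0.16) lay above the right ventricle medians of CHF (-0.011) and HYP (0.082). Adrb1 scored between -0.525 and 2.554 in right and between -1.042 and 0.16 in left ventricles. Adra1b scored between -1.371 and 0.756 in right and between -1.92 and -1.145 in left ventricles, and Agtr1b between -0.441 and 0.783 in right and between -1.247 and 0.07 in left ventricles. Left ventricle arrays lay between -1.178 and -0.151 for P2ry14, -1.092 and -0.44 for P2ry4, -0.93 and -0.443 for Avpr1a and -0.443 and 0.09 for Bdkrb2. Adrb1 was higher in right ventricles by 1.07 ± 0.297 (adjusted p = 0.0201), Adra1b by 1.02 ± 0.309 (0.0301), P2ry14 by 0.844 ± 0.247 (0.0262), P2ry4 by 0.787 ± 0.207 (0.0156), Avpr1a by 0.779 ± 0.244 (0.0336), Agtr1b by 0.685 ± 0.172 (0.0132) and Bdkrb2 by 0.539 ± 0.157 (0.0257). Chrm5 (-1.41 ± 0.549, adjusted p = 0.0767) and Hrh2 (0.547 ± 0.252, adjusted p = 0.123) had an unadjusted p below 0.05 and did not pass.

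These 8 calls changed with the direction given to the 5 doubtful arrays and with which left ventricle arrays and conditions entered. The doubtful arrays were marked in part by low correlation with right ventricle arrays. Turning the left ventricle ones can therefore itself remove a difference between ventricles, and the turned fit cannot decide these calls. With the sign turned, 0 receptors and 0 of all features passed, Npr2 differed by 0.0689 and Adra1b by -0.322. Within CHF, HYP and CON taken singly 0 passed in each. In the 24 fits that left out 1 array, the difference lay between 0.777 and 0.896 for Npr2 and between 0.482 and 0.595 for Bdkrb2, the smallest of the 8. The number of calls moved with the array left out, and array weights raised it. Counts over all features, 457 with all arrays, also moved with the sign, with array weights and with the conditions entered, as the last section gives. Over the conditions CHF and HYP alone 3 receptors passed, Npr2, Agtr1b and Bdkrb1, the last at 1.36 (adjusted p = 0.0279). Values with fewer decimals were given for CHF array 15 and both CON arrays of the left ventricle. Without them, which leaves 3 left ventricle arrays and no CON, 0 receptors passed over CHF and HYP. Within the conditions Bdkrb1 differed by 1.33 in CHF, 1.39 in HYP and -1.6 in CON, with no call.

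Values of the array component also differed between the ventricles. Projected onto the right ventricle loadings, in SDs of the right ventricle arrays, the left ventricle arrays lay at 0.34 to 1.44, while right ventricle arrays ran from -1.18 to 1.88. Across the 25 receptors, the right-minus-left difference correlated at -0.751 with the correlation to the component. Across 1617 features with a value on every right ventricle array it did so at -0.593. These sets are unlike, since some of the 25 receptors, Drd2, Htr1b, Htr2a and Chrm5 among them, lacked values on some right ventricle arrays. Of the 8 receptors called, Npr2, Avpr1a, Adra1b, P2ry4 and P2ry14 stood at its low end, and Adrb1, Agtr1b and Bdkrb2 between -0.0233 and 0.151. Erythrocyte markers were lower in right than in left ventricles in 4 of 4 measured genes, with a median of -5.45. All 4 passed the test, where 18.3% of all features did, and no feature did with the sign turned. The mean of the 3 with a value on every array was -6.552 and 5.431 on the HYP left ventricle arrays. It ran from 2.274 to 5.23 on the other left ventricle arrays and from -6.647 to -0.74 on right ventricle arrays. The 12 measured cardiomyocyte markers had a median of -0.69. The part of the component, of blood and of muscle cells in the 8 calls was not tested.

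**Figure D4:**
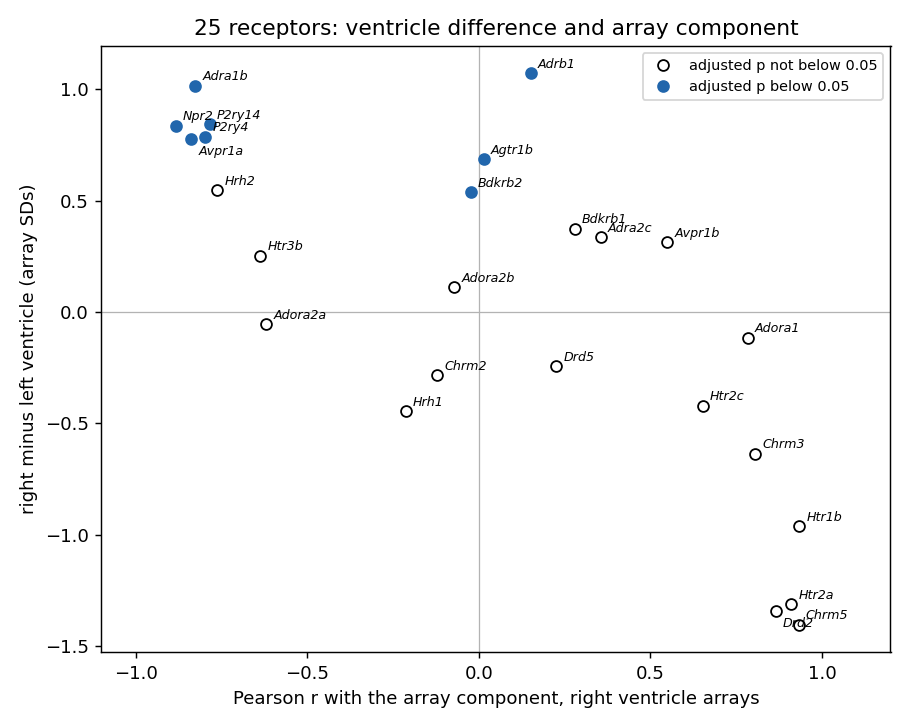
Right minus left ventricle difference (array SDs, vertical) of 25 receptor genes against their correlation with the array component over the right ventricle arrays (horizontal), filled where the adjusted p was below 0.05. Of the 8 filled points 5 lie at correlations below -0.78, while Drd2, Htr2a, Chrm5 and Htr1b lie at the lower right.

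The genes around the receptors were followed through 6 lists. Over all features 0.907% passed in CHF and 0.281% in HYP against CON right ventricles. Of the agonist clearance and uptake list, 19 of 28 genes were measured and 1 passed in a right ventricle comparison. Maoa, the mitochondrial monoamine oxidase that breaks down noradrenaline and serotonin, was higher by 3.66 ± 0.473 in CHF (adjusted p = 0.000157) and 2.47 ± 0.473 in HYP (adjusted p = 0.0226) than in CON right ventricles. With the sign turned neither call held (2.7, adjusted p = 0.103, and 2.47, adjusted p = 0.348), and the HYP call was also lost with array weights (adjusted p = 0.0534) or only 2 groups (0.165). Of the second messenger enzymes, 21 of 44 were measured and 1 passed in a right ventricle comparison, Itpka, an inositol trisphosphate kinase, at 2 ± 0.319 in CHF (adjusted p = 0.00132, and 0.0318 with the sign turned) and 0.734 ± 0.319 in HYP against CON (adjusted p = 0.9997). The medians of these lists in CHF were 0.01 and -0.16, against -0.099 over all features.

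In the other 4 lists 0 genes passed in a right ventricle comparison by limma. Agonist synthesis and peptide processing had 13 of 39 genes measured. Of these, 2 had an unadjusted p below 0.05 for CHF over CON, where 8.5% of all features did. They were Ctsd, a lysosomal protease, at 2.55 ± 0.774 (limma adjusted p = 0.315) and Ptgs1, a cyclooxygenase, at -0.699 ± 0.287 (adjusted p = 0.477). The G protein subunits had 15 of 29 measured and 1 such gene, Gnb1 at 0.729 ± 0.256, with Gng4 next at -0.866 ± 0.506. The regulators that desensitise receptors or speed the G protein cycle had 8 of 33 measured, with Rgs5 at 1.08 ± 0.429 and Rgs4 at 1.57 ± 0.641. The cAMP and cGMP effectors had 17 of 24 measured, with Akap12, an anchor of protein kinase A, at 0.884 ± 0.378 and Ppp1r1b, a phosphatase inhibitor, at 0.582 ± 0.294.

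Between ventricles, where 18.3% of all features passed and none did with the sign turned, 5 of the 15 G protein genes measured there passed. Gng8, Gnai3 and Gnb1 were higher in right ventricles by 1.45 ± 0.201, 1.24 ± 0.333 and 0.789 ± 0.266, and Gnas and Gng4 differed by -1.77 ± 0.46 and -0.948 ± 0.315. Of the 12 clearance genes Entpd1, Ache and Slc18a1 passed (0.865 ± 0.227, -1.41 ± 0.401 and -1.22 ± 0.361). Of the 15 second messenger enzymes Gucy1a1 and Plcb4 passed (0.964 ± 0.227 and 1.51 ± 0.364), and of the 8 synthesis genes Ptgs1 (1.1 ± 0.234). None of the 4 regulators and 10 effectors measured there passed.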

How the data were processed

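RNA of 24 rat ventricle samples was measured against a reference pool, per the labels. The authors deposited 1 score for each probe. Its scale, log base, dyes, normalization and filters are not stated in the labels or headers. Groups came from the labels, which do not state that samples are separate animals, so p-values measure the spread between samples. Of 4803 probes 4278 had 1 gene symbol, and 53 of the 55 receptor genes were found in RefSeq by identifier. Probes of 1 gene were averaged, arrays centred on their median, and groups compared with limma 3.58.1 in R 4.3.3 (statmod 1.5.0 for the block), with Benjamini-Hochberg adjustment over all features (threshold 0.05) with at least 2 values a group. The right ventricle fit held 18 arrays, and all others 24. The fit was tested on simulated data. Every measured receptor is described; single-array values or ranges are given where an unadjusted p was below 0.05 in a right ventricle comparison, and list genes are named where they passed in one or, where 0 did, by the 2 smallest p. Values and names from other comparisons were added after they were seen. The 5 genes most like Bdkrb1 are named by correlation. Receptors and lists were chosen with earlier results of these data known. Alternatives were no centring, sign turned, doubtful arrays left out, equal spread, a stricter filter, array weights, other samples in the fit, the replicate block, single probes, and each array left out. The number of arrays limits the precision. Fits use the values present, with none imputed.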

Additional observations from a re-analysis of the deposited data

Results flagged for a closer look

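Of 84 sets of 4 to 6 right ventricle arrays, 1 per receptor and group, 5 held an array far from the others, and chance gives about 1 in 20. Htr1a on CHF array 15 was at -0.721, with the nearest of 4 arrays at 0.049. P2ry14 on CON array 19 was at -0.492, with the nearest array at 0.725. Hrh1 on CHF array 09 was at 0.584, with the nearest of 5 arrays at -0.535. Adora2b on CHF array 12 was at 0.542, with the nearest array at 0.167, on the array with the fewest values. Bdkrb2 on HYP array 01 was at 0.91, with the nearest array at 0.307.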

How the results depend on the processing

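The count of 1 receptor past the test in CHF against CON of the right ventricle was the same in every alternative and in all 18 fits without 1 array (1 to 1), and that of 0 in CHF against HYP likewise (0 to 0). The count of 1 in HYP against CON became 0 with the sign turned, without the doubtful arrays, with array weights and with only the 2 groups compared, and was 0 to 1 with 1 array left out. Over all features CHF against CON gave 29 calls, but 9 with the sign turned, 18 without the doubtful arrays and 49 with the component; HYP against CON gave 9, but 1 with the sign turned and 0 with 2 groups. The count of 8 between ventricles became 0 with the sign turned, 14 with array weights, 3 over CHF and HYP, 0 over CHF and HYP without the 3 arrays given to 2 decimals, and 0, 0 and 0 within CHF, HYP and CON; it was 1 to 9 with 1 array left out, and Npr2 alone passed in all 24 such fits. All features there gave 457 calls, but 0, 1080, 95, 5, 5, 2 and 24 in these settings. Left ventricle counts of 0 stayed 0 to 0 with 1 array left out; with the sign turned HYP against CON gave 2 receptors (96 features), Npr2 at -1.845 and Adra1b at -2.927, and Adra1b between ventricles was -0.3216. The cause was not tested.

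The label numbers recur in both ventricles, but same-numbered arrays did not all deviate together (r = 0.243 and 0.261 for HYP, -0.2 and 0.305 for CHF and 0.0125 and 0.0577 for CON; the last 4 were -0.256, 0.312, -0.0125 and -0.0577 with the sign turned), so they are not taken as pairs. With the replicate block (correlation 0.231) features past the test between ventricles numbered 744, and the ventricle difference of the CHF and the HYP effect gave 1 receptor each, Bdkrb1, at 2.945 (adjusted p = 0.0413) and 2.875 (adjusted p = 0.0446). The CHF interaction also gave 1 with array weights, the HYP interaction 1 with the sign turned and 1 with the stricter filter, and both 0 to 1 with 1 array left out. No paired analysis was possible within the right ventricle because the groups share no numbers. Of 90 right ventricle differences of receptors, those without a call changed sign in 25 with the sign turned, 19 without the doubtful arrays, 22 with array weights, 9 with the component, 3 without centring and 1 with equal spread. Fits without the doubtful arrays could not be made where CON left ventricles enter the comparison, since both are doubtful.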
